A study of Danio rerio with 11 samples.

Results

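Chemokines and chemokine receptors were followed across the RNA-seq of sorted zebrafish melanoma cells and skin melanocytes. Members were all genes of the expression table whose symbol starts with ccl, cxcl, ccr, cxcr, xcr1 or ackr and a number, each Ensembl gene once, which gave 58 of 24441 genes. They comprise 33 ligands (23 CC and 10 CXC) and 25 receptors (10 CC, 8 CXC, 3 XC and 4 atypical). The melanoma group (MA) holds 5 tumors from 3 fish of the genotype *BRAFV600E*, *p53* lf/lf, *crestin:EGFP*, sorted for EGFP, and MA3A, MA3B and MA3C are tumors of the same fish. The melanocyte groups (MC) were sorted from skin for mCherry and hold a fish per sample. MC_Het (n = 3) is *BRAFV600E*/+, *p53* +/lf, *mitfa* +/- with *mitfa:mCherry*, and MC_WT (n = 3) is the AB* strain with *mitfa:mCherry* alone. *BRAFV600E* was driven by the *mitfa* promoter, and the mCherry transgene of both melanocyte groups also carried a *mitfa* minigene. Melanoma and melanocytes therefore differed in reporter, *mitfa* minigene, tissue of origin and *p53* genotype as well as in transformation. *BRAFV600E* also differed, since MC_WT lacked it and MC_Het carried it as *BRAFV600E*/+. These differences cannot be told apart here.

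Chemokines are small secreted proteins that guide migrating cells through G protein-coupled receptors. Atypical chemokine receptors bind the same ligands without G protein signaling and remove them. In mammalian skin, keratinocytes and stromal cells secrete chemokines, while many of the receptors are carried by leukocytes. Zebrafish often keep a pair of genes, a and b, for a mammalian chemokine or receptor. In zebrafish embryos the ligand Cxcl12a guides the lateral line primordium through Cxcr4b, and Ackr3b removes the ligand behind it.

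Values below are rescaled CPM, that is, the deposited counts relative to library size (CPM) divided by a size factor per sample. Library totals were between 14718024 and 22612463 reads, so 3 reads corresponded to between 0.111 and 0.244 rescaled CPM. Marker genes of keratinocytes, leukocytes and fibroblasts were far higher in the melanocyte sorts than in the melanoma sorts. The sum over 10 keratinocyte identifiers was from 146 to 495 rescaled CPM in MA, from 50116.5 to 91413 in MC_Het and from 65094 to 115603 in MC_WT. The sum over 8 pan-leukocyte genes was from 100.5 to 243 in MA, from 860.3 to 1163 in MC_Het and from 845 to 1840 in MC_WT. The macrophage sum (12 genes, of which *c1qc* had no read) was from 48.5 to 314 in MA, from 747 to 1342 in MC_Het and from 1350 to 3311 in MC_WT. The fibroblast sum over 6 genes was from 4.62 to 71.3 in MA, from 860.4 to 4132 in MC_Het and from 683 to 1508 in MC_WT. Marker sums of other pigment cells and of blood did not follow this. The xanthophore sum over 3 genes was from 116 to 511 in MA, from 69.9 to 205 in MC_Het and from 69.8 to 111 in MC_WT, and the iridophore and erythrocyte sums overlapped between MA and melanocytes. Melanocyte markers were present in every sample, with a sum over 9 genes from 3628 to 11151 in MA, from 1341 to 5514 in MC_Het and from 510.1 to 1113 in MC_WT. Among the tumors, MA1 and MA3C stood apart with the highest macrophage sums, 314 and 189.9, against 48.5 to 59.7 in the other 3 tumors. In such bulk samples, fewer cells of a type and less RNA per cell cannot be told apart, and the part of these other cells in the results below was not tested.

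Levels between genes were compared per length, in RPKM as deposited. In MA the highest member was *cxcl14* at 103 ± 81.1 RPKM (SD, n = 5), followed by *cxcr4b* at 36.2 ± 36.3, *cxcl18b* at 27.7 ± 23.0, *ccl34b.8* at 17.6 ± 17.0 and *ccl35.2* at 10.6 ± 8.79. Between tumors the SD of each of these means exceeded its distance to the next. Within tumors *cxcl14* was above *cxcr4b* in 5 of 5, *cxcl18b* above *ccl34b.8* in 5 of 5 and *ccl34b.8* above *ccl35.2* in 5 of 5, while *cxcr4b* was above *cxcl18b* in 3 of 5. In the 6 melanocyte samples the highest was *ccl25b* at 740.2 ± 219 RPKM (SD, n = 6), followed by *ccl27b* at 415 ± 114, *cxcr4b* at 356 ± 120.2, *ackr3b* at 159.7 ± 58.3 and *ccr9a* at 96.3 ± 30.4. Each was above the next in 6 of 6 melanocyte samples, except that *ccl27b* was above *cxcr4b* in 4 of 6. The melanocyte order was led by a pair of CC ligands, while *cxcl14* ranked 9 there. *cxcl14* made up 54.9% ± 10.9 (SD, n = 5) of the summed RPKM of all ligands in MA and 3.3% ± 1.56 (SD, n = 6) in melanocytes.

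A total of 43 members reached 1 CPM in 3 or more of the 11 samples and were tested with limma on log2(rescaled CPM + 1), and 15 were not. Differences are given as log2 fold changes (log2FC) with their standard errors (SE). Melanoma was lower than melanocytes in 37 of these 43 members and higher in 0 (limma, Benjamini-Hochberg adjusted p under 0.05, change of more than 1 log2 unit). Over all 14706 genes tested, 25.3% were called lower and 18.6% higher. The 0 members called higher stayed at 0 at an unadjusted p under 0.05 (27.2% of all genes), and with edgeR and DESeq2. At the stricter adjusted p of 1e-6 the lower members were 6 (limma), against 4.64% of all genes. Groups did not overlap, with every tumor below every melanocyte sample, in 22 members, against 18.6% of all genes. The median log2FC was -2.17 over the tested members and 0.04 over all tested genes. These shares are not evidence on their own, because 26 of the 43 members passed the filter through melanocytes alone, with fewer than 3 tumors at 1 CPM, which favors lower values in MA, and 25 of these 26 were called lower. Of the 14 members that reached 1 CPM in 3 or more samples of each cell type, 12 were called lower. The share among all genes that passed in this way was not computed, so this count has no matching share beside it. By class, 21 of 24 tested ligands and 16 of 19 tested receptors were lower. With the 3 tumors of fish MA3 averaged, 27 members were called lower, with fish as a random block 31 were, and without both MA1 and MA3C, an alternative chosen after seeing the data, 30 of 41 were. With the CPM as deposited, which moved the median of all genes to 0.58, 31 members were lower and 0 higher. Over all genes that scaling called 5220 higher and 2866 lower in MA, against 2740 higher and 3716 lower after rescaling.

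**Figure D1:**
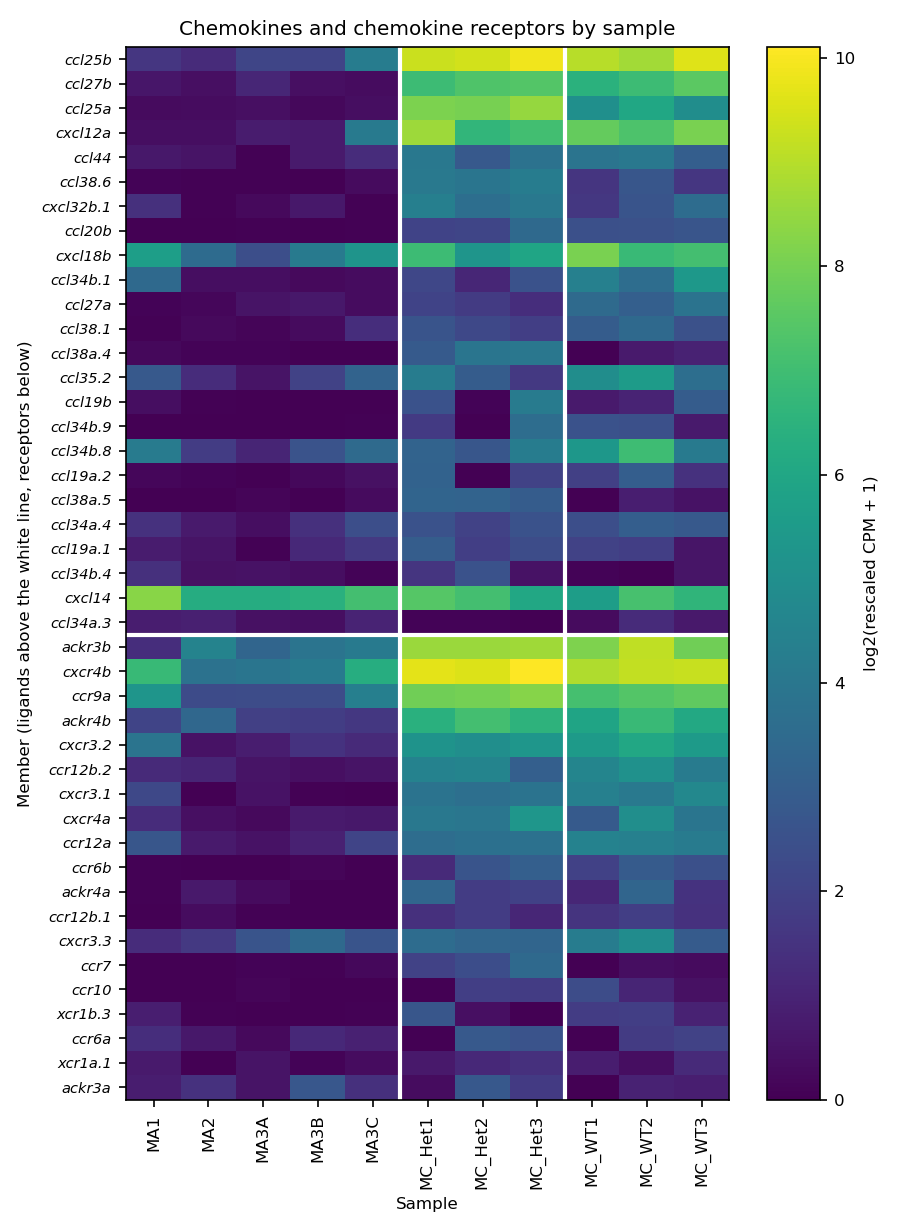
Heat map of the 43 tested members (rows; ligands above, receptors below, each ordered by log2FC of MA over MC) in the 11 samples (columns), as log2(rescaled CPM + 1). Rows such as *ccl25b*, *ccl27b* and *cxcr4b* are bright in all 6 melanocyte samples and darker in all 5 tumors, while *cxcl14* is at a like level throughout.

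The ligand gene *cxcl12a*, both *cxcr4* receptor genes and the scavenger receptor gene *ackr3b* were lower in MA. *cxcl12a* had 0.281, 0.294, 0.684, 0.652 and 17.2 rescaled CPM in MA1, MA2, MA3A, MA3B and MA3C, against 399, 98.4 and 131 in MC_Het and 211, 156 and 268 in MC_WT. The tumors did not reach any melanocyte sample, and MA3C alone was above 1 rescaled CPM. The log2FC of MA over MC was -6.29 (SE 0.60, adjusted p = 4.4e-07, limma). MA3C also had the highest fibroblast sum of the tumors, 71.3 rescaled CPM against 4.62 to 9.59 in the others. It had the highest keratinocyte (495), endothelial (19.3), Schwann cell (252) and melanocyte (11151) sums of the tumors too, though MA1 had the highest macrophage sum. Among melanocyte samples, MC_Het2 had the highest fibroblast sum (4132) and the lowest *cxcl12a* (98.4). In MC_Het1, MC_WT3, MC_WT1, MC_Het3 and MC_WT2 the fibroblast sums were 2263, 1508, 1308, 860.4 and 683. The *cxcl12a* values of these samples, in the same order, were 399, 268, 211, 131 and 156, which apart from the last pair fall with the sums. The part of fibroblasts in *cxcl12a* was not tested. Without MA3C the *cxcl12a* log2FC was -7.02. *cxcl12b*, the second copy, had at most 0.815 rescaled CPM in MA. It had 33.8 in MC_Het1, 3.38 in MC_WT3 and at most 0.205 in the other 4 melanocyte samples, so it was not tested.

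*cxcr4b*, the receptor through which zebrafish cells follow Cxcl12a, had 112, 13, 14.1, 16.8 and 77.8 rescaled CPM in the 5 tumors (MA1, MA2, MA3A, MA3B, MA3C). It had 833, 762 and 1102 in MC_Het and 476, 583 and 610.0 in MC_WT. MA1 and MA3C were the high tumors, and even these were below all melanocyte samples. Its mean was 15.5-fold lower in MA, with a log2FC of -4.45 (SE 0.50, adjusted p = 2.5e-06, limma). Its paralog *cxcr4a* was also lower, at 1.41, 0.336, 0.190, 0.652 and 0.556 rescaled CPM in MA, against 15.7, 14.7 and 38.5 in MC_Het and 6.36, 31.3 and 14.1 in MC_WT (log2FC -3.53, SE 0.42, limma adjusted p = 5.3e-06). In both paralogs the groups were separate.

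*ackr3b*, the scavenger receptor for Cxcl12a, had 1.53, 21.7, 8.70, 13.8 and 17.1 rescaled CPM in MA, against 388, 387 and 408 in MC_Het and 287, 558 and 238 in MC_WT. Its log2FC was -5.07 (SE 0.45, adjusted p = 2e-07, limma). Unlike *cxcr4b*, it was lowest in MA1. Its paralog *ackr3a* was low in every group, at 0.764, 1.72, 0.456, 5.72 and 1.63 in MA, against 0.265, 5.85 and 2.33 in MC_Het and 0, 0.967 and 0.784 in MC_WT. The groups of *ackr3a* overlapped, and its log2FC of 0.28 (SE 0.50) did not pass the test (limma adjusted p = 0.66). A difference between the *ackr3* paralogs was not tested.

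**Figure D2:**
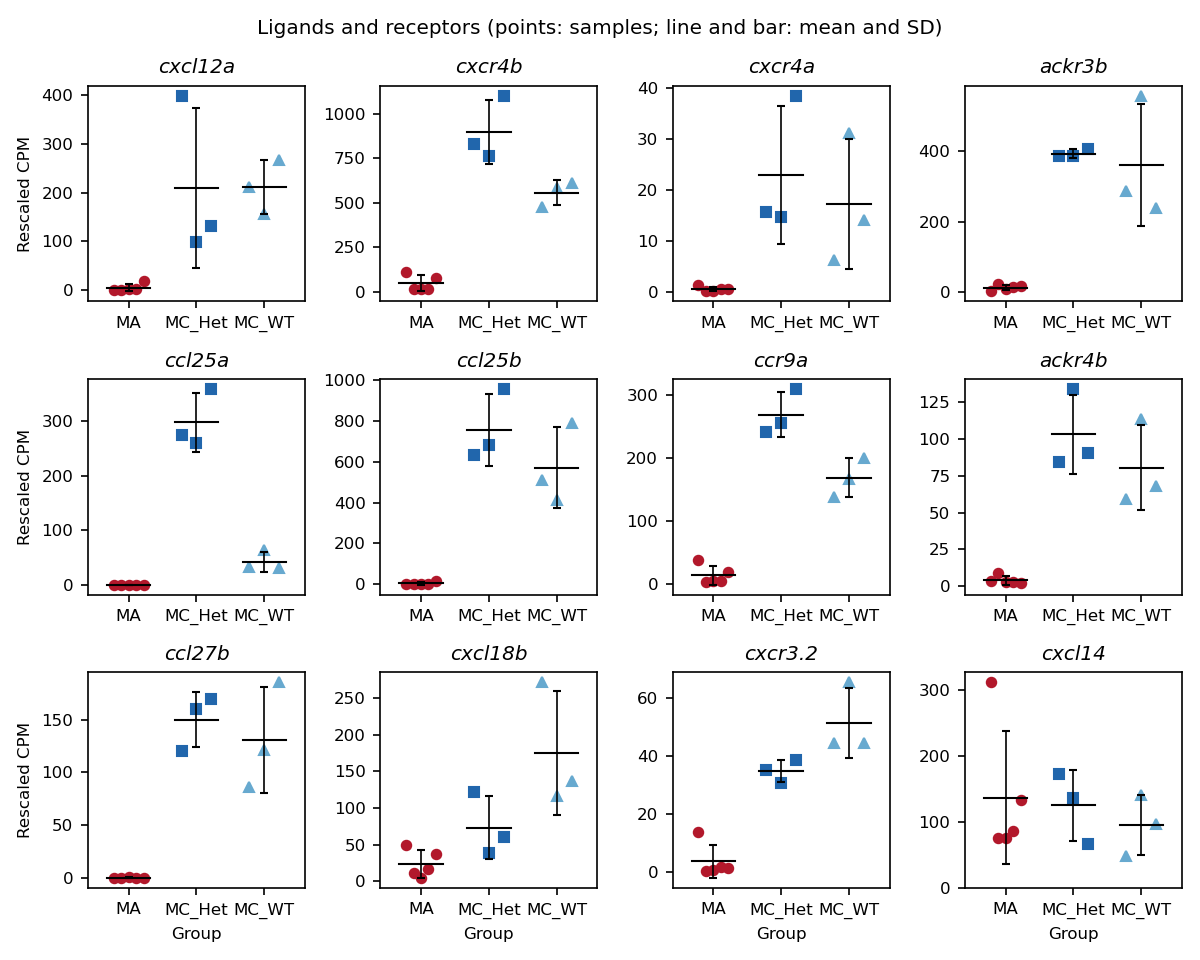
Rescaled CPM (vertical axes, linear) of 12 members in MA, MC_Het and MC_WT; points are samples, lines are means and bars are SD. The tumors lie below all melanocyte samples for *cxcl12a*, *cxcr4b*, *cxcr4a*, *ackr3b*, *ccl25a*, *ccl25b*, *ccr9a*, *ackr4b*, *ccl27b* and *cxcr3.2*, overlap them for *cxcl18b* and *cxcl14*, and only *ccl25a* shows MC_Het far above MC_WT.

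The *ccl25* ligands and their receptor showed the same direction. CCL25 attracts CCR9-bearing T cells to the thymus and gut in mammals. *ccl25b* had the largest fall of the 43 tested members against all melanocytes on the log2(rescaled CPM + 1) scale, with 2.01, 1.39, 3.38, 3.18 and 17.9 rescaled CPM in MA, against 629.9, 680.3 and 954 in MC_Het and 512, 411 and 789 in MC_WT. The mean was 119-fold lower in MA, with a log2FC of -7.07 (SE 0.43, adjusted p = 2.5e-09, limma). MA3C was the highest tumor, and it was still below all melanocytes. *ccl25a* was close to its counting limit in the tumors, from 4 to 9 reads, at 0.241, 0.252, 0.342, 0.153 and 0.296 rescaled CPM. It had 274, 259 and 358 in MC_Het and 32, 63.1 and 30.0 in MC_WT. The log2FC of MA over MC was -6.44 (SE 0.61, adjusted p = 3.9e-07, limma). By genotype it was -7.88 over MC_Het (SE 0.33, adjusted p = 6.4e-10) and -5.01 over MC_WT (SE 0.33, adjusted p = 3.1e-08, limma fit of 3 groups, which share the tumors).

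*ccr9a*, the zebrafish *ccr9* gene in the table, had 38, 3.91, 4.03, 4.03 and 19.6 rescaled CPM in MA, against 241, 255 and 309 in MC_Het and 138, 167 and 199.7 in MC_WT. The log2FC was -4.40 (SE 0.49, adjusted p = 2.5e-06, limma), and the groups did not overlap. MA1 and MA3C were again the high tumors, as for *cxcr4b*. Across all 11 libraries the RPKM of *cxcr4b* was between 3.28 and 4.61 times that of *ccr9a*, while *cxcr4b* itself spanned 84.6-fold in rescaled CPM between its highest and lowest sample. The ratio was 3.98 ± 0.54 in the 5 tumors, 3.70 ± 0.34 in the 3 MC_Het samples and 3.69 ± 0.27 in the 3 MC_WT samples (mean ± SD). This pair was chosen after its values were seen, and the ratio is a description. *ackr4b*, whose mammalian counterpart removes CCL19, CCL21 and CCL25, had 3.26, 9.29, 2.81, 2.61 and 2.15 rescaled CPM in MA, against 84.7, 134 and 90.8 in MC_Het and 59.5, 114 and 68.5 in MC_WT (log2FC -4.31, SE 0.33, limma adjusted p = 3.9e-08).

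The *ccl27* genes and *ccl20b* were also lower. *ccl27b*, related to the mammalian skin chemokine CCL27, had 0.523, 0.336, 1.1, 0.345 and 0.259 rescaled CPM in MA, against 120.3, 159.9 and 169.5 in MC_Het and 86.4, 121 and 185 in MC_WT. Its mean was 274-fold lower in MA, and it had the smallest p of the members (log2FC -6.53, SE 0.28, limma adjusted p = 7.1e-11). The tumors were all near 1 rescaled CPM or below. *ccl27a* had 0.0804, 0.126, 0.456, 0.575 and 0.259 in MA, against 3.05, 2.36 and 1.51 in MC_Het and 10.3, 7.31 and 13.4 in MC_WT (log2FC -2.22, SE 0.45, limma adjusted p = 0.00071). *ccr10*, related to the mammalian receptor for CCL27, had reads in a single tumor, with 0.114 rescaled CPM in MA3A. It had 0, 2.68 and 2.46 in MC_Het and 4.16, 1.09 and 0.362 in MC_WT, so its groups overlapped at 0. It was called lower (log2FC -1.23, SE 0.39, limma adjusted p = 0.015). This call was lost with the MA3 tumors averaged and without both MA1 and MA3C. *ccl20b*, related to a mammalian epithelial ligand for CCR6, had a single read in each of MA3A and MA3C and none in the other tumors, against 3.12, 3.33 and 9.99 rescaled CPM in MC_Het and 4.53, 4.65 and 5.31 in MC_WT. Of the *ccr6* pair, *ccr6b* was lower, with at most 0.115 in MA, against 1.33 to 7.26 in MC_Het and 2.85 to 6.47 in MC_WT (log2FC -2.32, SE 0.35, limma adjusted p = 4.7e-05). *ccr6a* had 1.53, 0.589, 0.190, 1.23 and 0.926 in MA, against 0, 6.09 and 5.07 in MC_Het and 0, 2.42 and 3.02 in MC_WT, and did not pass the test (limma adjusted p = 0.29).

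The *ccl19* genes and *ccr7*, a pair that guides dendritic cells and T cells in mammals, were at low levels in all samples. *ccl19a.1* had 0.683, 0.462, 0.0380, 1.27 and 2.22 rescaled CPM in MA, against 6.90, 2.68 and 4.11 in MC_Het and 3.0, 2.72 and 0.483 in MC_WT. *ccl19b* had 0.281 and 0.0420 in MA1 and MA2 and no read in the other tumors, against 4.91, 0.0812 and 17.5 in MC_Het and 0.658, 1.03 and 6.70 in MC_WT. Both passed the test with overlapping groups (limma adjusted p = 0.039 for *ccl19a.1* and 0.017 for *ccl19b*). *ccl19a.1* kept its call in 5 of 19 alternatives. Its call was lost when MC_WT1, MC_WT2, any MC_Het sample, MA1, MA2 or MA3A was left out, with limma adjusted p up to 0.11. *ccl19b* kept its call in 14 of the 16 alternatives that gave it a value. It lost the call without both MA1 and MA3C and with the MA3 tumors averaged. *ccl19b* reached 1 CPM in MC_Het1, MC_Het3 and MC_WT3 alone, and was not tested when any of these was left out. *ccr7* had 0, 0, 0.0760, 0.0384 and 0.148 in MA, against 2.99, 4.30 and 9.93 in MC_Het and 0, 0.302 and 0.241 in MC_WT. Its call against all melanocytes (log2FC -1.35, SE 0.53, limma adjusted p = 0.044) held in 7 of 16 alternatives and was lost when any single tumor was left out. In the fit of 3 groups its log2FC was -2.55 over MC_Het and -0.16 over MC_WT.

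Among receptors known from leukocytes, *cxcr3.2*, which directs macrophages to infection in zebrafish larvae, had 13.7, 0.420, 0.760, 1.76 and 1.33 rescaled CPM in MA, against 35.2, 30.8 and 38.5 in MC_Het and 44.4, 65.4 and 44.5 in MC_WT (log2FC -3.84, SE 0.49, limma adjusted p = 1.1e-05). MA1 was far above the other tumors and still below all melanocytes. *cxcr3.1* (ENSDARG00000007358) had 3.58, 0, 0.418, 0.0384 and 0 in MA, against 13.4, 12.0 and 13.6 in MC_Het and 20.3, 16.1 and 25.2 in MC_WT (log2FC -3.56, SE 0.42, limma adjusted p = 4.8e-06). The third gene of that cluster, *cxcr3.3*, a scavenger of Cxcr3 ligands in zebrafish, had the smallest change of the 3 and another order among tumors. It had 1.45, 2.19, 5.09, 9.94 and 5.22 in MA, against 11, 9.18 and 8.83 in MC_Het and 18.0, 29.5 and 6.45 in MC_WT, with overlapping groups (log2FC -1.39, SE 0.45, limma adjusted p = 0.018; -1.13 and not called without MA1). It was thus lowest in MA1, where the other *cxcr3* genes were highest. The 3 genes lie next to each other with 0 protein-coding genes between them in the RefSeq annotation, and a difference between them was not tested. The *ccr12* genes were lower too, with log2FC values of -3.58 for *ccr12b.2*, -2.64 for *ccr12a* and -1.44 for *ccr12b.1* (limma adjusted p = 1.4e-06, 8.7e-05 and 0.00025).

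*cxcl18b*, a ligand that attracts neutrophils in zebrafish, had 49.8, 10.7, 4.37, 16.3 and 37.0 rescaled CPM in MA, against 121, 37.8 and 60.6 in MC_Het and 271, 116 and 136 in MC_WT. MA1 was above MC_Het2, and the log2FC was -2.50 (SE 0.56, adjusted p = 0.0016, limma). *ccl34b.8* had 17.5, 2.48, 1.06, 4.95 and 10.2 in MA, against 8.30, 5.60 and 17.8 in MC_Het and 39.4, 124 and 16.3 in MC_WT. *ccl35.2* had 6.03, 1.43, 0.456, 2.99 and 8.30 in MA, against 17.9, 6.58 and 2.19 in MC_Het and 30.0, 45.6 and 11.6 in MC_WT. These groups overlapped, and MA1 and MA3C were the highest tumors for all 3 ligands. Against all melanocytes the log2FC was -1.81 for *ccl34b.8* and -1.86 for *ccl35.2* (limma adjusted p = 0.041 and 0.025). Of 20 alternatives, the first call held in 9 and the second in 12. The first was lost when any MC_WT sample, MC_Het3, MA2, MA3A or MA3B was left out. The second was lost without MC_WT1, MC_WT2, MA2 or MA3A. Over MC_WT the log2FC was -2.85 for *ccl34b.8* and -2.75 for *ccl35.2* (limma adjusted p = 0.0053 and 0.0048). Over MC_Het it was -0.77 and -0.98 for the same genes and did not pass (limma adjusted p = 0.41 and 0.26), and their difference between MC_Het and MC_WT did not pass either (adjusted p = 0.23 and 0.32).

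The other ligands called lower in MA were *ccl44* (log2FC -2.95), *ccl38.6* (-2.92), *cxcl32b.1* (-2.83), *ccl34b.1* (-2.24), *ccl38.1* (-2.17), *ccl38a.4* (-2.0), *ccl34b.9* (-1.83), *ccl19a.2* (-1.74), *ccl38a.5* (-1.70) and *ccl34a.4* (-1.29), with limma adjusted p from 6.5e-06 for *ccl44* to 0.021 for *ccl38a.5*. The other receptors called lower were the scavenger receptor gene *ackr4a* (-1.94, limma adjusted p = 0.0013) and *xcr1b.3* (-1.1, limma adjusted p = 0.044). The *xcr1b.3* call held in 6 of 19 alternatives. It was lost without MC_WT1, MC_WT2, MC_Het1 or any tumor of MA2, MA3A, MA3B and MA3C. The *ccl34b.1* call was lost without MA3B, without a filter, with edgeR, with the MA3 tumors averaged and with fish as a random block. The calls of *ccl38a.4* and *ccl38a.5* came with log2FC values of -3.52 and -3.05 over MC_Het and of -0.48 and -0.36 over MC_WT, the last pair without a call (limma adjusted p = 0.30 and 0.36), and both were lost with the MA3 tumors averaged. Several of these fish ligand genes have no single mammalian counterpart. The *ccl34b*, *ccl38* and *ccl19a* genes lie in clusters of copies, and since the handling of reads shared between copies is not given in the sources used here, values of single copies are uncertain. Folds on the log2(rescaled CPM + 1) scale understate the change of members with few reads.

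**Figure D3:**
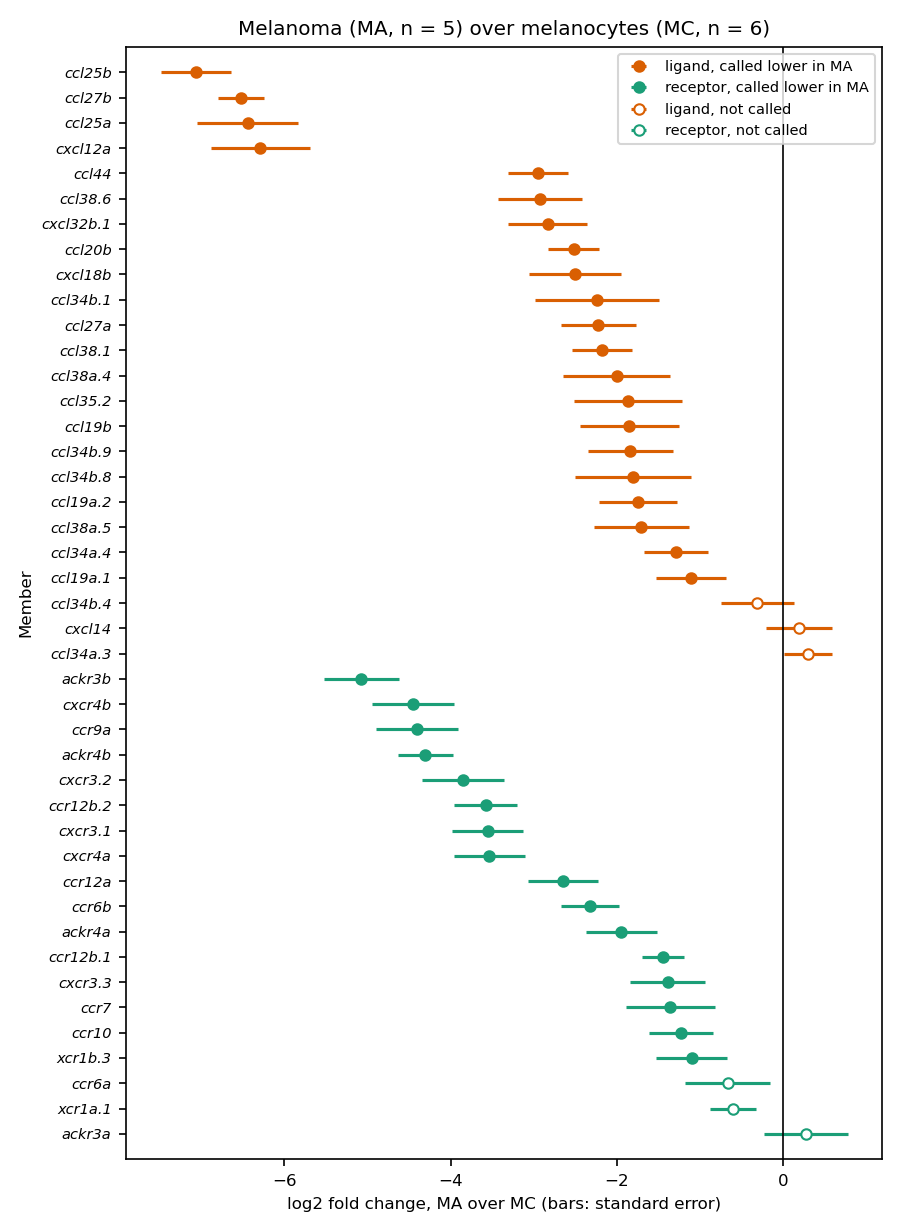
Log2FC of MA (n = 5) over MC (n = 6) for the 43 tested members, on log2(rescaled CPM + 1), with SE as bars; orange are ligands, green are receptors, filled points were called lower and open points were not called. The values run from -7.07 for *ccl25b* to 0.31 for *ccl34a.3*, with 37 filled points and 6 open ones.

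Members that were not lower in MA were few. *cxcl14*, an epithelial chemokine in mammals, had 313, 75.8, 75.6, 85.5 and 134 rescaled CPM in MA, against 172, 136 and 66.6 in MC_Het and 48.7, 141 and 97.2 in MC_WT. The groups overlapped, MA1 was the highest of all 11 samples, and the log2FC was 0.20 (SE 0.40, limma adjusted p = 0.70, exact permutation test 2-sided p = 0.70). Its sign was not stable, with a log2FC of -0.16 without MA1 and -0.01 without MC_WT1. *ccl34a.3* had 0.764, 0.841, 0.380, 0.307 and 1.000 in MA, against 0.0664, 0.0812 and 0 in MC_Het and 0.219, 1.39 and 0.603 in MC_WT. Every tumor was above every MC_Het sample, at the level of a few reads, and limma did not call it (log2FC 0.64 over MC_Het, adjusted p = 0.096), whereas edgeR and DESeq2 did. Over MC_WT its log2FC was -0.03 (limma adjusted p = 0.94). The remaining 2 tested members without a call and not yet described, *ccl34b.4* and *xcr1a.1*, had log2FC values of -0.31 and -0.60 (limma adjusted p = 0.58 and 0.081).

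Against each melanocyte genotype, in a fit of 3 groups in which both contrasts share the 5 tumors, 32 members were lower in MA than in MC_WT and 30 lower than in MC_Het, with 0 higher in each. Over all 14706 genes, 24.1% were lower than in MC_WT and 24.2% lower than in MC_Het, and 17.2% and 18.1% were higher (limma, same thresholds). At an unadjusted p under 0.05, 0 members were higher in either contrast (24% of all genes against MC_WT and 24.5% against MC_Het). edgeR and DESeq2 each called 1 member, *ccl34a.3*, higher than in MC_Het and 0 higher than in MC_WT. In exact permutation tests over samples, 17 members reached the smallest p possible for 5 against 6 samples (2-sided p = 0.0022), which counts tumors of the same fish as separate samples. That p needs complete separation of the groups, which held for 18.6% of all genes with tumors below and 12.5% with tumors above. The permutation test itself was not run over all genes. The counts of this paragraph have the limit given above, as 26 of the 43 members passed the filter through melanocytes alone, which favors lower values in MA.

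Within the tumors, several members were highest in MA1 and MA3C, which also had the highest pan-leukocyte, macrophage and neutrophil sums. Lymphocyte lists did not follow this order. The T cell and NK cell sum was 53.9 in MA1, 38.2 in MA2, 9.27 in MA3A, 36.8 in MA3B and 22.6 in MA3C. The B cell sum was highest in MA1 (10.6) and lowest in MA3C (2.85). The leukocyte gene *ptprc* had 35.3, 0.673, 6.20, 2.61 and 15.3 rescaled CPM in MA1, MA2, MA3A, MA3B and MA3C, and its highest values were in MA1 and MA3C, as for *cxcr4b* and *ccr9a*. In melanocytes *ptprc* had 114, 146 and 116 in MC_Het and 136, 188 and 93.6 in MC_WT. For the pan-leukocyte and macrophage sums, the tumor order was not seen among melanocyte samples. MC_WT2 had the highest pan-leukocyte (1840) and macrophage (3311) sums, while its *cxcr4b* (583) and *ccr9a* (167) were below every MC_Het sample. Macrophage sums were lower in MC_Het than in MC_WT, while *cxcr4b* and *ccr9a* were higher in MC_Het. The T cell and NK cell sum was 174.5, 166.8 and 282.7 in MC_Het, against 166.3, 126 and 139.6 in MC_WT. Like *cxcr4b* and *ccr9a*, this sum was highest in MC_Het3, though MC_Het2 and MC_WT1 nearly met. The B cell sum was highest in MC_WT2 (56.1). The part of these cells in the receptor values was not tested. *krt5*, a basal keratinocyte keratin, had from 57.2 to 131 rescaled CPM in MA, against 11255.5 to 49072 in MC_Het and 35351 to 76848 in MC_WT. Among the marker lists, 8 of 8 pan-leukocyte genes, 10 of 11 tested macrophage genes, 7 of 8 neutrophil genes, 6 of 9 T cell and NK cell genes, 9 of 9 tested keratinocyte identifiers and 6 of 6 fibroblast genes were lower in MA than in MC (limma). Also lower were 2 of 3 tested B cell genes, 4 of 5 endothelial genes, 4 of 5 Schwann cell genes and 3 of 7 erythrocyte identifiers, with 0 higher in these lists. Of the pigment cell lists, 1 of 3 xanthophore genes was higher and 1 lower, 1 of 5 iridophore genes was higher and 1 lower, and 7 of 9 melanocyte genes were higher and 1 lower. Over all genes tested, 25.3% were lower and 18.6% higher. How many list genes passed the filter through melanocytes alone was not counted. Without both MA1 and MA3C, the log2FC of MA over MC was -5.50 for *cxcr4b* and -5.41 for *ccr9a*, as leaving out their highest tumors must move them down. The same setting gave -6.95 for *cxcl12a*, -7.50 for *ccl25b* and -6.46 for *ccl27b*.

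**Figure D4:**
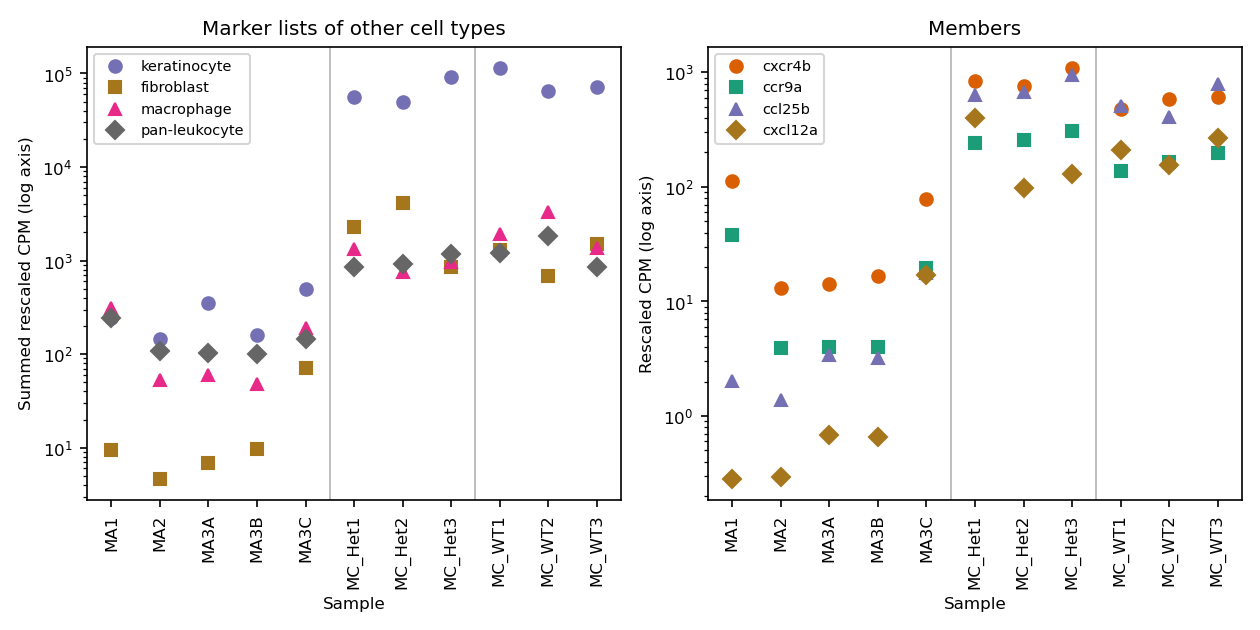
Left, rescaled CPM summed over marker lists of keratinocytes, fibroblasts, macrophages and leukocytes; right, rescaled CPM of *cxcr4b*, *ccr9a*, *ccl25b* and *cxcl12a*; each point is a sample (horizontal axis) and both vertical axes are logarithmic. MA1 and MA3C are the tumors with most macrophage signal, *cxcr4b* and *ccr9a*. MA3C has the highest fibroblast sum (71.3), keratinocyte sum (495) and *cxcl12a* (17.2) among tumors. Among melanocyte samples, MC_Het2 has the highest fibroblast sum and the lowest *cxcl12a*, while of the others MC_Het1 has the highest of both (2263 and 399).

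Of 25 listed genes of chemokine signal transduction (G protein subunits, arrestins, Rac GTPases and kinases), 17 were in the table and 16 were tested, of which 4 were lower and 4 higher in MA (limma), against 25.3% and 18.6% of all genes, with a median log2FC of -0.27. These shares were near those of all genes. The lower ones were *rac2*, a GTPase of blood cells, at 8.99 ± 3.79 rescaled CPM in MA (SD, n = 5) and 146 ± 50.6 in MC (SD, n = 6), *gnai2b*, *ptk2ba* and *hck*. The higher ones were the G protein subunit genes *gnai3* and *gng2*, the arrestin gene *arrb2a* and *prex1*, a Rac exchange factor. By genotype, 3 of the 16 genes were higher and 5 lower than in MC_WT (limma), against 17.2% and 24.1% of all genes. Against MC_Het, 1 was higher and 4 lower (limma), where 18.1% and 24.2% of all genes were. Of the most abundant genes of the list, *gnb1a* and *arrb2b* did not pass (limma adjusted p = 0.62 and 0.39). *gnai2a* missed only the required size of change against all melanocytes (log2FC -0.91, limma adjusted p = 0.0034) and was lower than in MC_WT (log2FC -1.18, limma adjusted p = 0.0013). *rac2* is also on the pan-leukocyte list. Of 26 listed inflammatory regulators and cytokines, 17 were in the table and 15 were tested. Of these, 10 were lower and 0 higher, against 25.3% and 18.6% of all genes, with a median log2FC of -2.05. As for the marker lists, how many genes of either list passed the filter through melanocytes alone was not counted. *ptgs2a*, which encodes a cyclooxygenase for prostaglandin synthesis, had 10.8 ± 6.26 rescaled CPM in MA (SD, n = 5) and 1528 ± 492 in MC (SD, n = 6), a log2FC of -7.14 (limma adjusted p = 4.4e-10). *cebpb*, an inflammatory transcription factor gene, had 80.7 ± 47.3 rescaled CPM in MA (SD, n = 5) and 1582 ± 224 in MC (SD, n = 6). The NF-kB inhibitor genes *nfkbiaa* and *nfkbiab*, themselves NF-kB targets, had log2FC values of -3.22 and -1.75.

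Between the melanocyte genotypes, tested in the 6 melanocyte samples alone, 2 of 40 tested members were higher in MC_Het and 0 were lower (limma), where 0.353% of all 13044 genes tested were higher and 0.161% lower. *ccl25a* had 274, 259 and 358 rescaled CPM in MC_Het, against 32, 63.1 and 30.0 in MC_WT. The groups were far apart and the mean was 7.12-fold higher in MC_Het (log2FC 2.87, SE 0.33, adjusted p = 0.0060, limma). Its paralog *ccl25b*, listed above, overlapped between the genotypes (log2FC 0.43, SE 0.30, limma adjusted p = 0.60), and the keratinocyte sums overlapped as well. The *ccl25a* call was lost without MC_Het2 or MC_Het3 (limma adjusted p up to 0.060), without a filter and with a replicate block. Its log2FC stayed between 2.68 and 3.21 with each sample left out. *ccl38a.4* had 6.37, 14.3 and 15.0 in MC_Het, against 0, 0.665 and 0.965 in MC_WT (log2FC 3.04, SE 0.55, limma adjusted p = 0.049). This call was at the threshold and was lost with edgeR and without MC_WT1 or MC_WT3, with limma adjusted p up to 0.24.

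The neighbours of *ccl38a.4* had a like pattern and just missed the threshold or did not pass. *ccl38a.5* had 8.56, 8.37 and 6.64 rescaled CPM in MC_Het, against 0, 0.785 and 0.422 in MC_WT (log2FC 2.69, SE 0.49, limma adjusted p = 0.051). *ccl38.6* had 16.0, 14.4 and 17.9 in MC_Het, against 1.97, 5.56 and 2.05 in MC_WT (log2FC 2.12, SE 0.49, limma adjusted p = 0.11). In the RefSeq annotation *ccl38.6*, *ccl38a.5* and *ccl38a.4* follow each other with 0 protein-coding genes between them, and reads shared between near-identical copies of such clusters could have been split. *ccl38.1*, farther off, did not show this, with 5.11, 3.57 and 2.67 in MC_Het, against 6.65, 9.91 and 4.65 in MC_WT (limma adjusted p = 0.59). *ccr7* had 2.99, 4.30 and 9.93 in MC_Het, against 0, 0.302 and 0.241 in MC_WT (log2FC 2.39, SE 0.55, limma adjusted p = 0.11). Like *ccl38a.4*, both *ccl38a.5* and *ccr7* passed the filter through MC_Het alone. The T cell marker *cd4-1*, 1 gene of the list of 9 T cell and NK cell genes, had 8.23, 13.8 and 16.0 in MC_Het, against 1.68, 0.725 and 0.543 in MC_WT. The T cell and NK cell sum over 9 genes was from 166.8 to 283 in MC_Het and from 126 to 166.3 in MC_WT. These ranges nearly met, and of the 8 genes of that list tested, 0 were called higher or lower (limma). Their median log2FC was 0.34, so *cd4-1* does not stand for the list. The part of T cells in the *ccr7* and *ccl38* values was not tested.

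Members lower in MC_Het did not pass the test. *ccl34b.1* had 3.45, 1.14 and 4.79 rescaled CPM in MC_Het, against 20.3, 11.2 and 40.5 in MC_WT (log2FC -2.54, SE 0.59, limma adjusted p = 0.11). *ccl27a*, with the per-sample values above, had a log2FC of -1.77 (SE 0.49, limma adjusted p = 0.17), while *ccl27b* had 0.25 (limma adjusted p = 0.79). The macrophage sum was from 747 to 1342 in MC_Het and from 1350 to 3311 in MC_WT, ranges that nearly met. Of 11 macrophage genes tested, 0 were called higher or lower in MC_Het (limma), and the part of macrophages in these values was not tested. At an unadjusted p under 0.05, 8 members were higher and 5 lower in MC_Het, against 6.65% and 5.96% of all genes. For the 0 members lower, edgeR also gave 0 and DESeq2 gave 3. The genotypes did not overlap in 8 members higher and 5 members lower in MC_Het, against 9.15% and 8.95% of all genes. An exact permutation test of 3 against 3 samples cannot go below p = 0.10, and *ccl25a* and *ccl38a.4* were at that value. *cxcr4b* and *ccr9a* each had a log2FC of 0.68 with separate groups and did not pass (limma adjusted p = 0.30 for both).

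**Figure D5:**
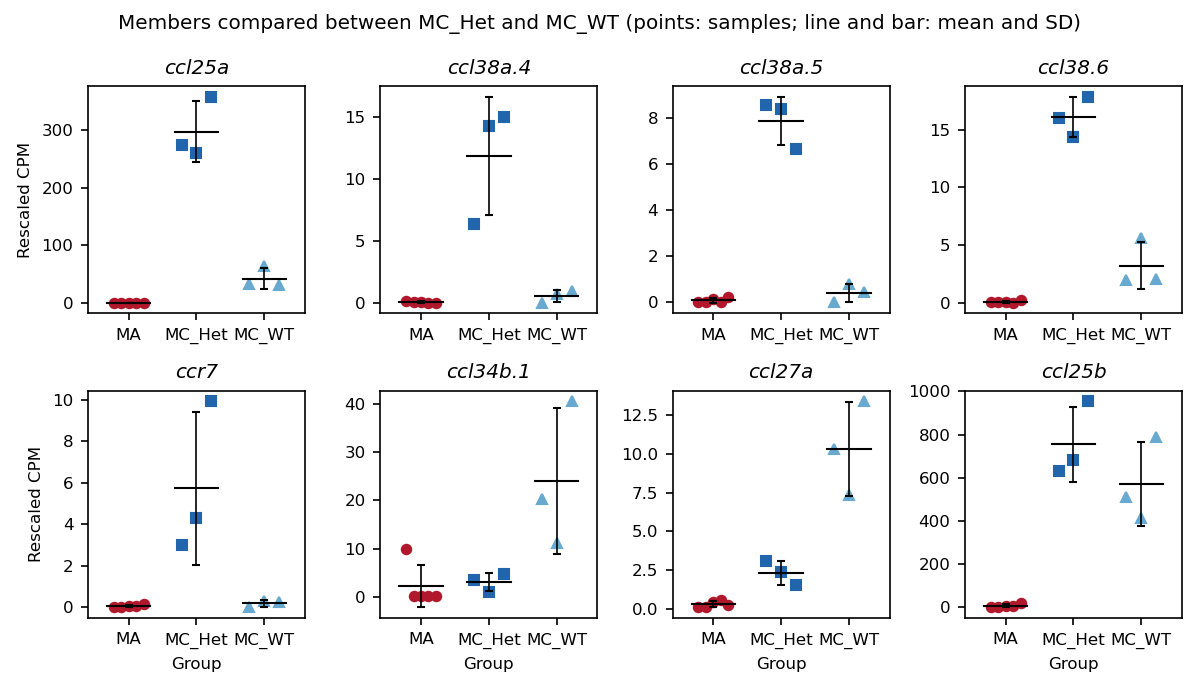
Rescaled CPM (vertical axes, linear) of 8 members in MA, MC_Het and MC_WT; points are samples, lines are means and bars are SD. *ccl25a* and *ccl38a.4* were called higher in MC_Het, *ccl38a.5*, *ccl38.6* and *ccr7* show separate groups without a call, *ccl34b.1* and *ccl27a* lie lower in MC_Het, and *ccl25b* overlaps between the genotypes.

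The 15 members below the filter were mostly near their counting limit. *cxcl11.5*, related to the interferon-induced ligands of mammalian CXCR3, had 16.3 rescaled CPM in MC_Het3, 1.69 in MA1 and at most 1.13 in every other sample. *ccl34b.3* had 1.61, 0.0420, 0.304, 2.38 and 0.0741 in MA, with no read in MC_Het and a single read in MC_WT. *ccr11.1* had from 0.0402 to 0.882 in MA, against at most 0.199 in melanocytes, and *ccr8.1* had from 0.304 to 1.72 in MA, against 0 to 0.967 in melanocytes. *cxcr5*, the follicular B cell receptor of mammals, had 1.62 in MC_Het2 and at most 0.407 elsewhere. The neutrophil receptor gene *cxcr2* had 3 reads in all tumors together and 0 reads in all melanocyte samples. Apart from *cxcl12b*, described above, the remaining members below the filter had at most 1.66 rescaled CPM, and *cxcl11.8* had a single read in the whole series.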

How the data were processed

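Single-end reads of 11 sorted-cell samples were aligned to GRCz11 with STAR by the authors, who deposited CPM per gene and RPKM per gene. Dividing the deposited CPM by what 1 read is worth gave whole reads (100% of low values whole within 0.01) and library totals; the deposited RPKM are these CPM per length. The notes name RSEM, and the counter behind the table is not given in the sources used here. Of 24874 rows, 236 identifiers stood on several rows with equal values and were used once. Intervals of depth cover counting error only.

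Size factors came from the median of ratios over 12400 genes (factors from 0.685 to 1.36). Genes that reached 1 CPM in 3 or more samples were tested with limma 3.58.1 (R 4.3.3; trend) on log2(rescaled CPM + 1), 2-sided, over all genes, and called at an adjusted p under 0.05 with a log2 fold change above 1. The study used 1e-6, counted once. Members, lists and tests were chosen with earlier results of these data known. Names mostly followed a rule: the 3 called members with the largest change per direction, the 5 highest by RPKM per cell type, and ligand and receptor pairs, with values in every sample where a member reached 1 CPM. Values in every sample of other members, such as *ccl38a.5*, *ccl38.6*, *ccl38.1*, *ccl34b.1* and *ccl34a.3*, were given outside this rule. RefSeq (GRCz12tu) matched 49 members and gave neighbours only. Permutation tests enumerated all splits. In simulated counts, 200 genes with a mean above 5 CPM differed by 3 log2 units. All genes had the same dispersion, and samples were independent. There limma called 200 of 200 with 10 false calls among 14228 genes for MA against MC. For MC_Het against MC_WT it called 200 of 200 with 8 among 12818. In MA against MC, 21 members had a mean of at least 5 CPM. Smaller changes, changes in genes of lower mean and tumors that share a fish were not simulated. Alternatives were deposited CPM, pseudocount 0.1, no filter, a mean CPM of 5 or more, edgeR 4.0.16 and DESeq2 1.42.0 on recovered reads, MA3 tumors averaged, fish as a block, leaving out each sample and a block for replicate number. All samples carry the same run label, so no batch was modelled.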

Additional observations from a re-analysis of the deposited data

Results flagged for a closer look

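Among the 5 tumors, a single sample stood far from the others by Dixon's test in 15 of 43 members. The same share over all tested genes was not computed, so this count cannot be called particular to the members. Chance gives about 1 group in 20 for normally distributed values, which rescaled CPM near 0 are not, and in 11 of the 15 members the outlying value was under 10 rescaled CPM. MA1 was the sample in 7 of these, MA3C in 4, MA2 in 2 and MA3A and MA3B in 1 each. In MA1 the values in rescaled CPM were 313 for *cxcl14*, with the next tumor at 134, 13.7 for *cxcr3.2* (next 1.76), 9.97 for *ccl34b.1* (next 0.304), 3.58 for *cxcr3.1* (ENSDARG00000007358; next 0.418), 1.65 for *ccl34b.4* (next 0.418), 0.804 for *xcr1b.3* (next 0.0420) and 0.281 for *ccl19b* (next 0.0420). In MA3C they were 17.9 for *ccl25b* (next 3.38), 17.2 for *cxcl12a* (next 0.684), 1.48 for *ccl38.1* (next 0.230) and 0.0370 for *ccl34b.9*, a single read where the others had none. MA2 had 9.29 for *ackr4b* (next 3.26) and 0.252 for *ccr12b.1* (next 0.0380), MA3B had 5.72 for *ackr3a* (next 1.72), and MA3A had 0.114 for *ccr10*, where the others had none. The macrophage sums of MA1 and MA3C, 314 and 189.9 rescaled CPM, were also the highest of the tumors, and the part of this in the values was not tested.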

How the results depend on the processing

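Of the 37 members called lower in MA than in MC, 25 were called in every alternative that gave a value, and 0 of the 37 changed sign in any. With each sample left out, the number lower was from 30 to 35 against MC, from 25 to 32 against MC_WT and from 24 to 30 against MC_Het. With a mean of at least 5 CPM, fewer members were tested, and 20, 20 and 16 were lower in these contrasts. The 0 members higher in MA than in MC_Het became 1 (*ccl34a.3*) with a pseudocount of 0.1, edgeR and DESeq2. The 2 members higher in MC_Het than in MC_WT became 1 with a pseudocount of 0.1, a mean of at least 5 CPM and edgeR, 0 without a filter, 5 with DESeq2 and from 0 to 4 with each sample left out. The 0 members lower there became 3 with DESeq2 and from 0 to 1 with each sample left out. The cause of these moves was not tested. Over all genes, edgeR on the recovered reads called 2575 higher and 3688 lower in MA than in MC, and 26 higher and 15 lower in MC_Het than in MC_WT, where DESeq2 called 293 and 220 and limma 46 and 21. The melanocyte genotypes share replicate numbers but come from separate fish, and same-numbered samples did not deviate together (correlations of -0.01, -0.12 and -0.07), so the numbers do not pair them; with a replicate block, 0 members were higher and 0 lower. Uncalled log2 fold changes of MA over MC changed sign for *cxcl14* (-0.01 without MC_WT1 and -0.16 without MA1, within a range from -0.16 to 0.35 over the samples left out, and -0.35 without both MA1 and MA3C, chosen after seeing the data) and for *ackr3a* (-0.060 without MA3B, range from -0.060 to 0.61). At this depth, members at a few reads in MA had folds that could not be resolved.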
